A study of Mus musculus with 6 samples.

Results

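Ptk2b encodes Pyk2 and Ptk2 encodes FAK, the 2 focal adhesion kinases of the mouse. They were taken by gene symbol, 1 row each, from the 55416 gene rows of the deposited count table, of which 18511 had enough reads to be tested. Ptk2b was chosen by its p in the comparison of EU with PBS, the smallest of all genes with lower values in EU, and Ptk2 because it is the only close relative. Their EU and PBS levels are therefore given as a description, with no test.

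Mouse pups received ethynyluridine (EU), a uridine analogue with an alkyne that is built into new RNA, or PBS as the vehicle. EU was given at 50 mg/kg under the skin once a day on postnatal days 3 to 5, and the hippocampus was dissected on day 36 in both groups. Biotin was clicked onto the RNA and streptavidin beads were applied in both groups alike, so the PBS pulldown gives the background binding against which RNA kept since the first days of life is sought. There were 3 EU and 3 PBS libraries, made with a total RNA kit. The labels name no strain and do not say whether each library is a separate animal, so the spread between libraries may be partly technical.

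Pyk2 and FAK are cytoplasmic tyrosine kinases built from a FERM domain, a kinase domain, proline-rich stretches that bind SH3 domains and a focal adhesion targeting domain. Both phosphorylate themselves on a tyrosine ahead of the kinase domain, which then binds the SH2 domain of Src family kinases and starts a shared cascade. FAK answers mainly to integrins and is present in most cell types. Pyk2 answers in addition to calcium and Gq-coupled receptors, is abundant in forebrain principal neurons and is also found in microglia, and at the synapse it associates with PSD-95 and NMDA receptors.

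The coding sequence around that tyrosine is shown because it is the switch both kinases share. The tyrosine codon is in capitals, at codon 402 of Ptk2b and codon 397 of Ptk2, in the longest coding transcript of each gene in the GENCODE M21 annotation (build GRCm38).
Ptk2b: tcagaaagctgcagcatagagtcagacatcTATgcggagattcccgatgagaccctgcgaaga
Ptk2: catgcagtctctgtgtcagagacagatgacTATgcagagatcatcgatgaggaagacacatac

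The coding sequences are 3027 bases (Ptk2b) and 3165 bases (Ptk2) long, and 63.4% of 2910 aligned bases are identical. The 90-base coding window in which the 2 are most alike is shown because it bears on whether reads could be counted for the wrong kinase. Capitals mark the bases that differ, and 70 of the 90 are identical.
Ptk2b: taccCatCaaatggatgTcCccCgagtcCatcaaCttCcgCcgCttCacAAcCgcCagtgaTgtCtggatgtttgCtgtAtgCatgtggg
Ptk2: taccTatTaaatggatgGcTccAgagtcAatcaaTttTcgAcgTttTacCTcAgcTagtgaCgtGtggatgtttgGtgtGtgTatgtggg

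The longest run of identical bases in the 2 whole transcripts was 25. Of the runs of 50 bases, 0 of 3985 in the Ptk2b transcript and 0 of 4626 in the Ptk2 transcript occurred, on either strand, in an annotated transcript of another gene. Neither the read length nor the strand setting is given in the sources used here.

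Ptk2b (ENSMUSG00000059456) spans bases 66390706 to 66518501 of chromosome 14 (minus strand) and Ptk2 (ENSMUSG00000022607) bases 73076951 to 73295129 of chromosome 15 (minus strand), both in GRCm39 and both protein-coding. No other gene of the table overlapped Ptk2b. Its nearest protein-coding neighbours were the acetylcholine receptor subunit gene Chrna2, 309 bases away, with 1 to 40 reads per library, and Trim35, an E3 ligase gene, 15979 bases away. The log2 fold of Trim35 was -0.14 (SE 0.054, edgeR adjusted p = 0.566). Ptk2 contains 4 other genes of the table. The lncRNA 1700085D07Rik and the snoRNA Gm24787 had 0 reads in all 6 libraries, and the pseudogene Gm7908 had 0 to 30. The microRNA gene Mir151, on the same strand as Ptk2, had 0 to 4 reads in 5 libraries and 68 in PBS replicate 2. The neighbours of Ptk2 were Ago2, the slicer of RNA interference, 20167 bases away (log2 fold -0.13, SE 0.052, edgeR adjusted p = 0.551) and Dennd3, 89280 bases away (log2 fold -0.36, SE 0.357, edgeR adjusted p = 0.837).

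The libraries held 39886723 to 58301239 reads counted to genes. One control library differed from the rest: PBS replicate 2 detected 19243 genes where the others detected 23816 to 26372, and its mean correlation of log2 CPM was 0.938 where theirs was 0.970 to 0.977. Levels are CPM, read counts relative to the library total, scaled by TMM factors that correct for unequal composition, so an EU pulldown that recovered more of every RNA would look the same. None of the 9 marker lists of cell types used to check the tissue had a gene at 0 in all libraries, and the lists of CA pyramidal and dentate granule neurons, the principal cells of the hippocampus, summed to at least 1269 and 537 CPM in every library.

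Ptk2b was lower in the EU pulldown than in the PBS pulldown. It stood at 696.2, 685.5 and 730.8 CPM in EU replicates 1 to 3, from 35885, 27490 and 30772 reads. In PBS replicates 1 to 3 it stood at 900.5, 889.5 and 885.0 CPM, from 42306, 38309 and 51013 reads. The highest EU library lay below the lowest PBS library, and the PBS libraries were close to each other while EU replicate 3 was above the other EU libraries.

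The group means were 704.2 CPM ± 23.7 in EU and 891.7 ± 7.99 in PBS (mean ± SD, n = 3 each), so EU was 0.790 times PBS, or -0.34 on the log2 scale (SE 0.043). This was the smallest p of the 8855 genes with lower values in EU and rank 2 of all tested genes, with an edgeR adjusted p of 0.0723, and those are the values for which Ptk2b was chosen. Next to it stood Plppr2 (log2 fold -0.42, edgeR adjusted p = 0.0723). Of the 18511 genes, 0% had an edgeR adjusted p of at most 0.05, and an unadjusted p under 0.05 was reached by 1459. CPM without overlap and lower in EU was seen for 7.18% of the tested genes. Without PBS replicate 2 the log2 fold was -0.345. The fold of Ptk2b was not large among all genes, with 10.3% of them at or below it. In bulk tissue, fewer cells of a type and less RNA per cell cannot be told apart, nor can either be told from a difference in what the pulldown recovered. None of these was tested.

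Ptk2 was at nearly the same level in both groups. It stood at 92.0, 90.6 and 98.9 CPM in EU, from 4744, 3632 and 4165 reads. In PBS it stood at 92.1, 86.7 and 93.3 CPM, from 4327, 3733 and 5380 reads. The groups overlapped, with EU replicate 3 the highest and PBS replicate 2 the lowest library.

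The Ptk2 means were 93.8 CPM ± 4.46 in EU and 90.7 ± 3.54 in PBS (mean ± SD, n = 3 each), and the log2 fold of 0.05 was smaller than its SE of 0.063. That fold was 0.002 without EU replicate 3 and 0.015 without PBS replicate 2. The counting error of the smallest count was 0.603% for Ptk2b and 1.66% for Ptk2. The SD between replicates was 3.37% in EU and 0.897% in PBS for Ptk2b, and 4.75% and 3.90% for Ptk2. Counting error takes reads as independent, and no molecular identifiers are named.

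**Figure D1:**
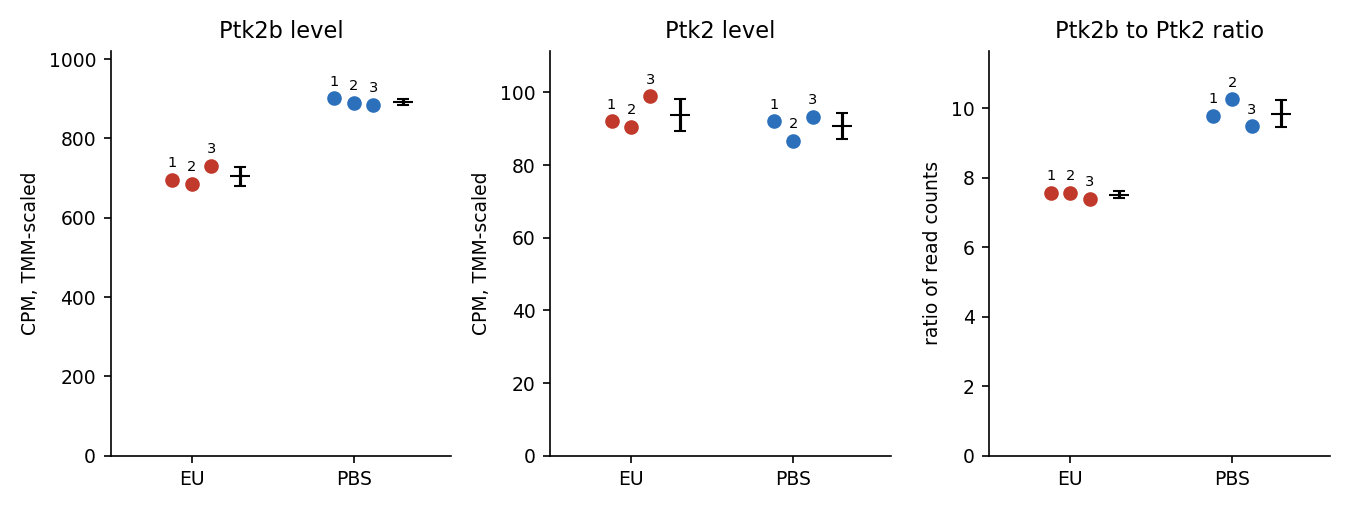
Ptk2b and Ptk2 levels (CPM, TMM-scaled) and the ratio of their read counts in the 3 EU and 3 PBS libraries; numbers are replicates, and the bar beside each group is its mean with the SD. Ptk2b and the ratio separate the groups, while Ptk2 runs from 86.7 to 98.9 CPM with overlap.

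The ratio of Ptk2b to Ptk2 reads within a library needs no scaling. It was 7.56, 7.57 and 7.39 in EU and 9.78, 10.3 and 9.48 in PBS. All EU libraries were lower than all PBS libraries. The mean ratio was 7.51 ± 0.103 in EU and 9.84 ± 0.394 in PBS (mean ± SD, n = 3 each), a difference in log2 ratio of -0.39. As Ptk2b was chosen for this contrast, the difference is given without a test.

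Per length the kinases differed more than by reads alone. With the longest coding transcript as the length (4034 bases for Ptk2b and 4675 for Ptk2), Ptk2b stood at 221.0 CPM per kilobase ± 1.98 in PBS and 174.6 ± 5.87 in EU (mean ± SD, n = 3 each). Ptk2 stood at 19.4 CPM per kilobase ± 0.757 in PBS and 20.1 ± 0.954 in EU. In PBS the Ptk2b level per length was thus 11.4 times that of Ptk2, and in EU 8.70 times. Among 18431 tested genes with an annotated transcript, the median level per length in PBS was 3.71 CPM per kilobase, with Ptk2b at percentile 99.4 and Ptk2 at percentile 84.4. Which isoforms were present, and whether reads in introns were counted, is not given in the sources used here, and either would change these levels.

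EU replaces uridine, so the uridines of each RNA set how much label it can hold. The Ptk2b transcript has 857 uridines, or 21.2% of its bases, and the Ptk2 transcript 1125, or 24.1%, against a median of 24.6% over tested genes. Ptk2b was at percentile 18.8 of uridine share and Ptk2 at percentile 44.5. Genes of at least 10 CPM were cut into 5 bins of equal size by uridine share, and the median log2 fold per bin ran from -0.01 to 0.008. The bin of lowest share, which holds Ptk2b, had a median of -0.0007, and the bin of Ptk2 had -0.01. The part of uridine share in the folds of the kinases was not tested.

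**Figure D2:**
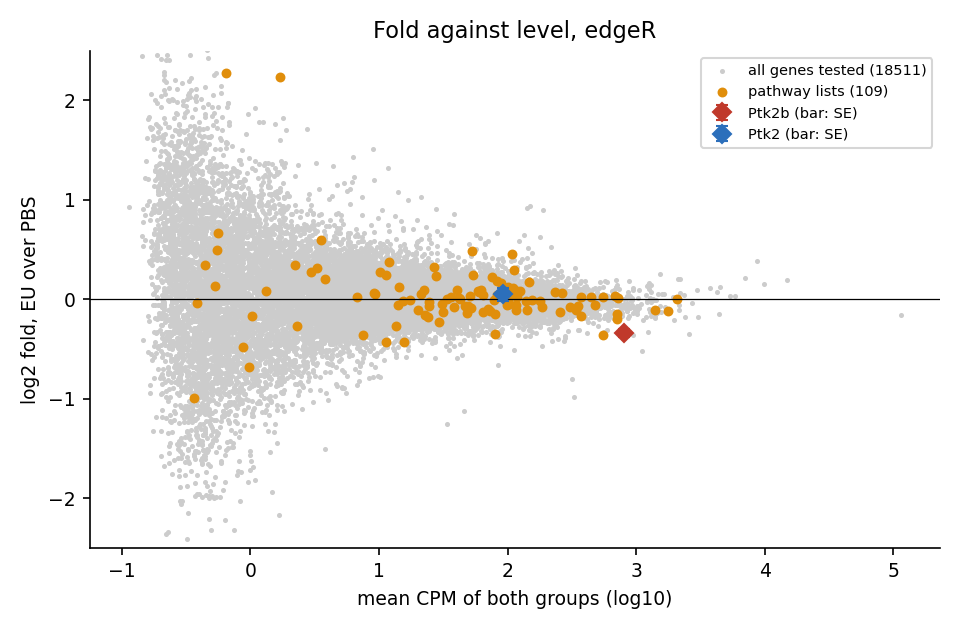
Log2 fold of EU over PBS (edgeR) against the mean CPM of both groups on a log10 axis, for all tested genes (grey), the 109 tested pathway genes (orange) and the 2 kinases (diamonds, bars are SE). Ptk2b sits at -0.34, at the lower edge of genes of like level, and Ptk2 at 0.05 inside the cloud; 30 genes lie outside the plotted range.

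Among the 5 genes whose profile over the 6 libraries was nearest to that of Ptk2b were Hpca, Wasf1, Camk1d and Cnih2. Likeness was the root mean square difference of log2 CPM, each gene centred on its own mean, among 9322 genes of at least 10 CPM on average. Hpca, the calcium sensor hippocalcin, was nearest at 0.020 log2 units. Wasf1 of the WAVE complex (0.036), the calmodulin-dependent kinase gene Camk1d (0.036) and the AMPA receptor auxiliary subunit gene Cnih2 (0.038) were next of these. The log2 folds were -0.33 for Hpca, -0.31 for Wasf1, -0.28 for Camk1d and -0.31 for Cnih2. Each was lower in all 3 EU libraries than in any PBS library. Genes picked for a profile near that of Ptk2b take on its group difference through the choice, so neither is a separate result. All of these genes share the libraries and their scaling, so the likeness is a description.

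Around Ptk2 the nearest profiles were those of Ppp2r5c, a regulatory subunit of phosphatase PP2A (0.013 log2 units), Klhl42 (0.013), the phosphatase gene Ppm1b (0.014), Avl9 (0.017) and the nuclear receptor corepressor Lcor (0.017). Each was highest in EU replicate 3 and lowest in PBS replicate 2, as Ptk2 was, with log2 folds of 0.03 to 0.06. This too largely follows from the choice. The profiles of Ptk2b and Ptk2 differed from each other by 0.198 log2 units.

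**Figure D3:**
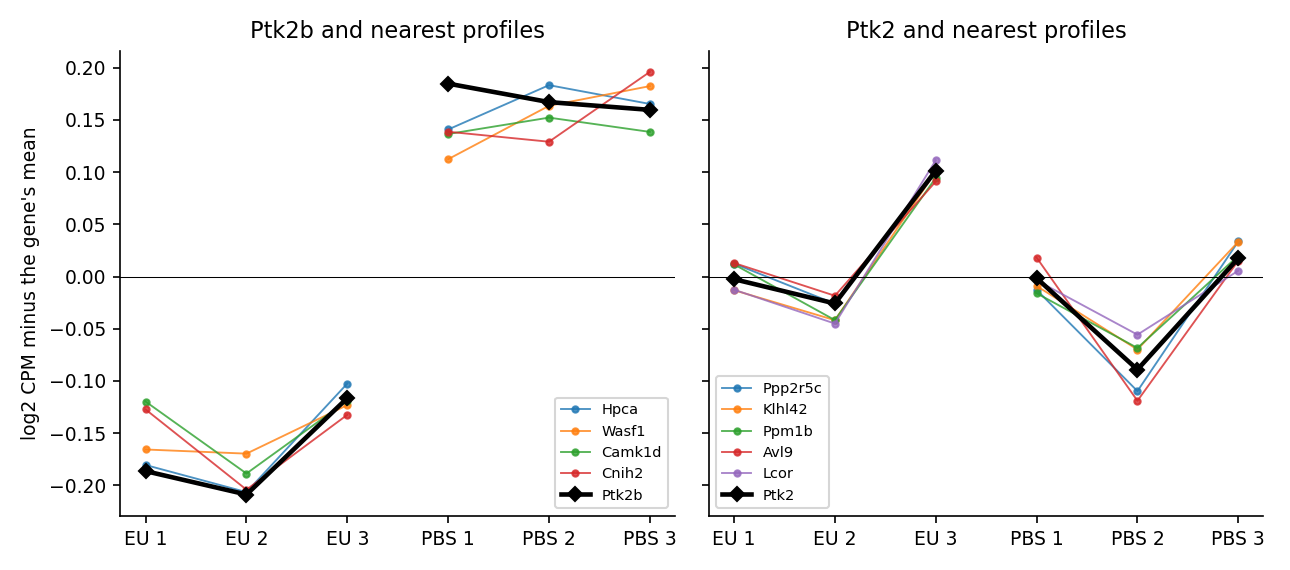
Log2 CPM minus the gene's own mean in each library (EU 1 to 3, PBS 1 to 3) for Ptk2b (left) and Ptk2 (right) in black and for the named genes nearest to each in colour; lines only join points of a gene within a group, since replicates have no order. The Ptk2b set steps up from EU to PBS, and the Ptk2 set peaks in EU replicate 3 and is lowest in PBS replicate 2.

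No gene of the pathway lists passed the edgeR test. Of 113 genes in 7 lists by role, 109 were tested and 0 passed in edgeR, against 0% of all genes. An unadjusted p under 0.05 was reached by 10 with higher and 8 with lower values in EU, against 3.84% and 4.05% of all genes. All EU libraries lay above all PBS libraries for 12 of the genes and below them for 10, against 8.52% and 7.18% of all genes. By sign alone 56 were higher and 53 lower, against 52.2% and 47.8% of all genes. The median log2 fold was 0.007 over the lists and 0.01 over all tested genes. DESeq2 called 7 pathway genes (4 higher, 3 lower), against 2.46% of all genes it gave an adjusted p, and edgeR with no filter on low counts called 6 (4 higher, 2 lower), against 0.797% of all genes. With limma voom and library quality weights 1 passed, Arhgef28, against 0.259% of all genes. Without PBS replicate 2, 0 of 111 passed in edgeR, against 0.103% of all genes, and 26 had an unadjusted p under 0.05, against 10% of all genes.

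Of the integrins, the matrix receptors upstream of FAK, 24 of 26 were tested, 14 with higher and 10 with lower values in EU (median log2 fold 0.13). The beta 1 subunit Itgb1, shared by most matrix receptors, was at 64.4 CPM ± 1.21 in EU and 60.1 ± 8.99 in PBS (mean ± SD, n = 3 each). Itgav, which pairs with several beta subunits, stood at 87.3 ± 6.24 and 77.0 ± 3.58 (log2 fold 0.18, SE 0.072, edgeR adjusted p = 0.564), and the fibronectin receptor subunit Itga5 had a log2 fold of -0.27 (SE 0.296) at 2.07 CPM ± 0.407 in EU. The laminin receptor subunit Itga7, the integrin with the smallest p, was at 12.52 to 13.97 CPM in EU and 15.6 to 20.7 in PBS (log2 fold -0.43, SE 0.131, edgeR adjusted p = 0.398). The groups did not overlap for Itga7 and overlapped for the other 3.

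Among the Src family kinases, which bind the phosphorylated tyrosine, Src and Fyn differed little. Src was at 114.1 CPM ± 4.38 in EU and 118.6 ± 5.33 in PBS, and Fyn at 119.7 ± 4.11 and 117.6 ± 6.94 (mean ± SD, n = 3 each). Of 6 tested members 3 had higher and 3 lower values, with a median log2 fold of 0.005. None had CPM apart between the groups, the lymphocyte kinase gene Lck (0.751 and 1.20 CPM, edgeR adjusted p = 0.828) included. Over all genes 8.52% were higher and 7.18% lower without overlap. A list of 6 genes is too short for a count of 0 to differ from those shares.

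The adhesion adaptors, which tie integrins to actin and carry the kinases to adhesions, had a median log2 fold of -0.002, with 11 of 22 higher and 11 lower. Pxn (paxillin), which docks the targeting domain of both kinases, had a log2 fold of 0.05 (SE 0.098) at 21.7 CPM ± 0.887 in EU (mean ± SD, n = 3). Talin 2 (Tln2), which activates integrins, had a log2 fold of -0.08 (SE 0.053) and vinculin (Vcl), which reinforces the actin link, one of 0.01 (SE 0.112). Smallest in p were the PINCH adaptor gene Lims2 (9.59 and 12.9 CPM, log2 fold -0.43, edgeR adjusted p = 0.458) and the kindlin gene Fermt1 (2.80 and 0.584 CPM, log2 fold 2.24, SE 0.874, edgeR adjusted p = 0.555), the latter at few reads.

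Among adaptors and effectors of the kinases, 13 had higher and 12 lower values (median log2 fold 0.007). Bcar1 (p130Cas), a scaffold that both kinases bind, was at 69.9 CPM ± 2.15 in EU and 75.8 ± 6.10 in PBS, its SH2 partner Crk at 100.4 ± 1.90 and 101.9 ± 1.90, and the GTPase activating protein gene Arhgap26 at 128.4 ± 3.21 and 121.5 ± 19.2 (mean ± SD, n = 3 each). Arhgef28, an exchange factor for RhoA that binds FAK, was at 72.4, 67.2 and 69.6 CPM in EU and 93.8, 84.3 and 88.4 in PBS. Its log2 fold of -0.35 (SE 0.066, edgeR adjusted p = 0.144) was like that of Ptk2b in size. Pitpnm3, whose product binds Pyk2, was at 56.1, 60.1 and 70.7 CPM in EU and 45.3, 40.1 and 47.9 in PBS (log2 fold 0.49, SE 0.101, edgeR adjusted p = 0.198). The groups did not overlap for either gene, and they went in opposite directions.

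The negative regulators had a median log2 fold of 0.08, with 5 of 7 higher. Ptpn5 (STEP), the neuronal phosphatase that removes phosphate from Pyk2, was at 79.0, 83.3 and 83.5 CPM in EU and 67.6, 72.5 and 70.0 in PBS. All EU libraries were above all PBS libraries, opposite to Ptk2b (log2 fold 0.23, SE 0.062, edgeR adjusted p = 0.331). Rb1cc1 (FIP200), which binds and inhibits both kinases, was at 103.6 to 107.1 CPM in EU and 91.7 to 101.4 in PBS (log2 fold 0.12, SE 0.061, edgeR adjusted p = 0.686). Ptpn12 (PTP-PEST), a phosphatase that acts on Bcar1, had a log2 fold of -0.06 (SE 0.089).

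The calcium and Gq input of Pyk2 had a median log2 fold of -0.09, with 10 of 16 lower. The protein kinase C genes Prkca and Prkce had all EU libraries below all PBS libraries (chosen here after their values were seen). Their log2 folds were -0.17 and -0.15 (edgeR adjusted p = 0.519 and 0.409), while that of Prkcb was 0.02 with overlap. Of the 16 genes, 3 were lower and 1 higher in EU without overlap, against 7.18% and 8.52% of all genes. The phospholipase gene Plcb4 had a fold of 0.33 on the log2 scale (SE 0.092, edgeR adjusted p = 0.339), while Plcb1, the main isoform in hippocampal neurons, had a log2 fold of 0.06 (SE 0.054). The G protein subunit gene Gnaq had a log2 fold of -0.07 (SE 0.049).

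The postsynaptic partners had a median log2 fold of -0.02, with 4 of 9 higher and 5 lower. Dlg4 (PSD-95), which binds Pyk2 through its SH3 domain, was at 726.3 CPM ± 45.9 in EU and 720.9 ± 44.3 in PBS (mean ± SD, n = 3 each). The NMDA receptor subunit Grin2a, one whose tyrosines the Pyk2 and Src pathway modifies, stood at 632.5, 607.3 and 744.9 CPM in EU and 749.7, 752.1 and 770.5 in PBS, without overlap (log2 fold -0.20, SE 0.071, edgeR adjusted p = 0.511). Grin2b had a log2 fold of -0.12 (SE 0.062) with overlap. Dlg1 (SAP97) was at 112.4 to 130.3 CPM in EU and 95.3 to 106.2 in PBS (log2 fold 0.30, SE 0.074, edgeR adjusted p = 0.287).

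**Figure D4:**
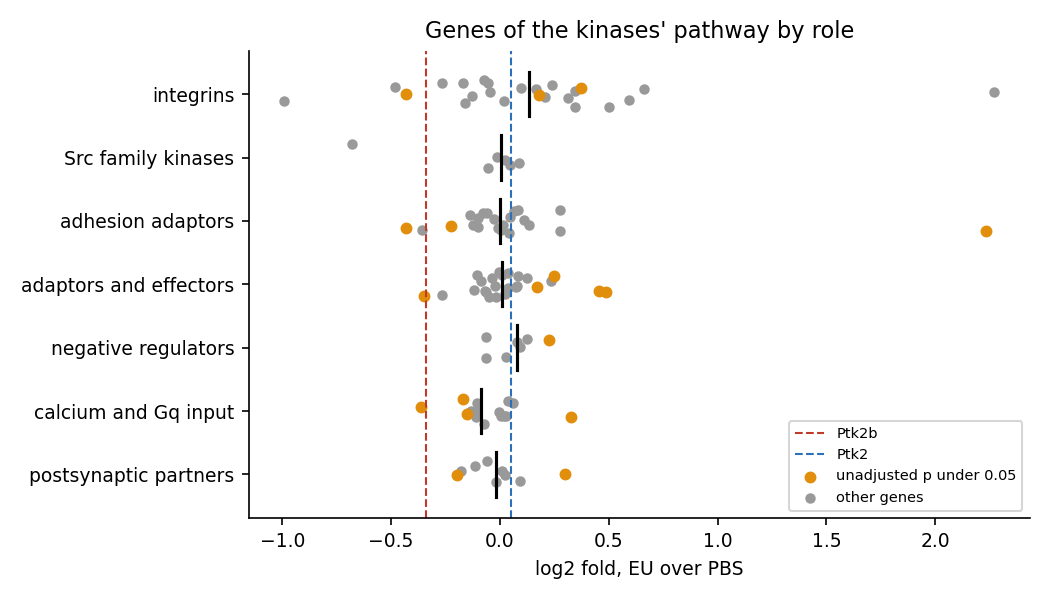
Log2 fold of EU over PBS for each tested gene of the 7 lists by role; black bars are medians, orange points have an unadjusted p under 0.05 in edgeR (0 pass after adjustment), and dashed lines mark Ptk2b (-0.34, left) and Ptk2 (0.05, right). List medians lie between -0.09 and 0.13, and the median over all tested genes is 0.01. Ptk2b was chosen by its p among genes lower in EU, so its distance from these medians largely follows from the choice.

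Markers of hippocampal pyramidal neurons had lower summed levels in EU, as Ptk2b had, and whether the sums overlapped depended on single genes. Wfs1, 1 of the 3 genes with higher values in EU, was at 231.8 CPM in EU replicate 3. It was at 139.8 and 135.3 CPM in EU replicates 1 and 2, and at 98.6, 137.8 and 118.6 CPM in PBS replicates 1 to 3. The 12 CA pyramidal genes summed to 1355, 1269 and 1447 CPM in EU and to 1467, 1475 and 1546 CPM in PBS. The sums did not overlap, although EU replicate 3 was near PBS replicate 1. Without Nptx1, a neuronal pentraxin and the highest gene of the list, they summed to 837.4, 803.1 and 941.1 CPM in EU and to 826.5, 885.6 and 905.6 CPM in PBS, which overlap. Those sums still hold Wfs1, which adds most in EU replicate 3, so the overlap rests in part on it. The list had 9 genes with lower and 3 with higher values (median log2 fold -0.20, 0 passing in edgeR). CPM lay apart for 6 of 12 lower and 1 higher, against 7.18% and 8.52% of all genes. The 10 dentate granule genes summed to 537.3 to 555.6 CPM in EU and 539.3 to 710.5 in PBS, with 8 lower (median -0.15). Of these genes 3 were lower with CPM apart and 0 higher.

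Neocortical genes tended to higher summed levels in EU, with overlap between EU replicate 1 and PBS replicate 2 only. The 12 of 13 found in the table summed to 572.5 to 652.5 CPM in EU and 476.1 to 573.5 in PBS, with 9 higher (median log2 fold 0.37). CPM lay apart for 4 of 12 higher and 0 lower, against 8.52% and 7.18% of all genes. Without Etv1, the highest gene of the list, the sums also overlapped, at 455.9 to 550.5 CPM in EU and 382.9 to 456.9 in PBS. Microglia, which also contain Pyk2, had 9 of 12 markers with higher values (median 0.06), 3 of them with CPM apart and 0 lower with CPM apart. Their summed level overlapped between the groups, at 333.8 to 372.4 CPM in EU and 315.7 to 351.3 in PBS.

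Choroid plexus and ependyma, which line the ventricles beside the hippocampus, had markers that differed widely between libraries of a group. The 10 genes summed to 3039, 3762 and 779.4 CPM in EU and to 5403, 2462 and 1727 CPM in PBS. The groups overlapped, with EU replicate 3 the lowest and PBS replicate 1 the highest library, and all 10 genes had lower values in EU (median log2 fold -0.25, 0 with CPM apart). The summed levels of interneurons, astrocytes, oligodendrocytes and of endothelial and mural cells also overlapped between the groups, with medians of 0.07, 0.04, -0.009 and -0.10 on the log2 scale. The part of any of these cell and region markers in the Ptk2b difference was not tested.

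**Figure D5:**
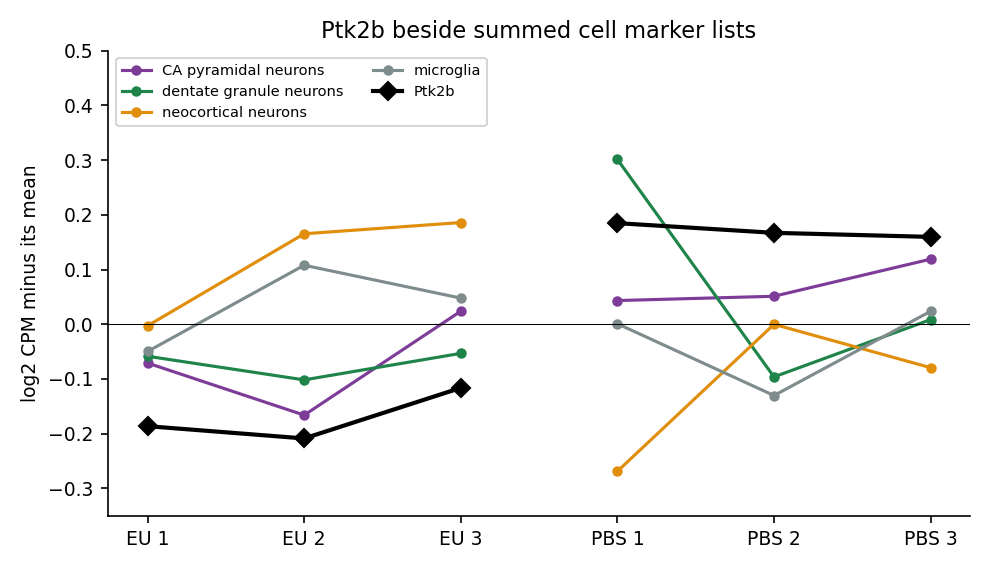
Ptk2b (black diamonds) beside the summed CPM of 4 marker lists, each as log2 minus its mean over the 6 libraries; lines join libraries of a group, which have no order. Ptk2b ranges from -0.21 to 0.18, the CA pyramidal sum from -0.17 to 0.12, and the neocortical sum is highest in EU replicate 3 (0.19) and lowest in PBS replicate 1 (-0.27).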

How the data were processed

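Values in the deposited table are raw read counts per gene, made by the authors with bcl2fastq 2.20.0, STAR 2.7.10b and featureCounts 2.0.1 on GRCm39, per the submitters' processing notes. Neither annotation release nor counted feature is given in the sources used here. The 92 ERCC spike-in rows held 0 counts and were left out, and there were 0 columns of other samples. Libraries were grouped by their titles. No library was a copy of another (lowest chi-square per degree of freedom 7.16).

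The test was that of edgeR 4.0.16 in R 4.3.3 (filterByExpr, TMM, quasi-likelihood test, two-sided, treatment as the only term, Benjamini-Hochberg over all 18511 genes, threshold 0.05). SE was the size of the log2 fold over the root of the F statistic. Alternatives used DESeq2 1.42.0 and limma 3.58.1. The members and gene lists were chosen with earlier results of these data known. Named genes were both kinases, their neighbours, the genes marked in each list with the 2 smallest p, and the 5 nearest profiles, and some genes that this rule names are not reported here. Arhgap26 had 2 rows, and the one with more reads was used. Lengths, uridine shares and sequences came from GENCODE M21, matched by identifier for 99.6% of tested genes, and the coding alignment from Biopython 1.88.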

Additional observations from a re-analysis of the deposited data

How the results depend on the processing

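Over 17 other settings the log2 fold of Ptk2b ran from -0.375 to -0.317, that of Ptk2 from 0.002 to 0.074 and their difference from -0.416 to -0.360, each within 1 SD between replicates of the value reported. Counts of genes passing depended on the method. Over all genes 248 passed without the filter on low counts, 288 with DESeq2, 12 with limma voom, 18 with the replicate number as a block and 48 with limma voom and library quality weights, against 0, and 0 to 20 when 1 library was left out (20 without PBS replicate 2, 1 without EU replicate 1). Of pathway genes 6 passed without the filter, 7 with DESeq2 and 1, Arhgef28, with quality weights. The cause was not tested. Quality weights and leaving Rn18s and mitochondrial genes out of the totals were chosen after seeing the data. Libraries of the same number correlated at 0.024 to 0.098 in their deviations, and those of unlike number at -0.071 to 0.018. The numbers were not taken as pairs, but the same-number values were the higher, and whether they are pairs was not settled. With the replicate block, Ptk2b had a log2 fold of -0.341 and Ptk2 0.049.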
